A study of Mus musculus with 6 samples.

Results

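Translation initiation factors, the proteins that bring the ribosome, the initiator tRNA and the mRNA together, were described in mouse splenic plasma cells. They were taken by gene symbol: symbols starting with Eif and a digit, without the eIF2 kinases (Eif2ak), the eIF4E-binding proteins (Eif4ebp), Eif2s3y and pseudogene symbols. Of 47 such symbols among 24346 in the files, 45 reached an FPKM of 1 or more in 3 or more libraries out of 6. In all, 9087 symbols did so. FPKM are fragments per kilobase of transcript, scaled for library size in a way not given in the sources. The 2 factor symbols not kept were Eif4e1b, listed at 0 in every library, and Eif3j1, which reached 1 FPKM in 1 library. Of the 45 kept, 44 had at least 1 FPKM in all 6 libraries, and Eif5a2, with an FPKM of at least 1 in 1 IgM and 2 IgG1 libraries, was the exception.

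The study compared IgM plasma cells with IgG1 plasma cells, 3 libraries each. Both came from B cells with a knocked-in B1-8 germline heavy chain, which recognises the hapten NP, and with a congenic mark that tells donor from host. These cells had been transferred into wild-type C57BL/6J mice that were then given NP-CGG, a protein carrying NP, in alum. On day 7 plasma cells of donor origin were sorted from the spleen by isotype, so both groups share the receptor transgene, the host, the antigen and the day. Whether the libraries within an isotype stem from different mice is not stated in the labels, so a p-value measures only how these libraries scatter, and that scatter may be technical.

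Initiation runs through a fixed set of complexes. eIF2 brings the initiator tRNA and is recharged with GTP by eIF2B, eIF3 is the large scaffold on the small ribosomal subunit, and eIF1, eIF1A and eIF5 govern the choice of the start codon. The eIF4 factors bind the mRNA cap and unwind the leader, and eIF5B and eIF6 act on the large subunit. Plasma cells are known for devoting much of their protein synthesis to antibody, and phosphorylation of eIF2 is the step at which the unfolded protein response slows initiation.

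The libraries held an estimated 14800000 to 17800000 fragments each, read from the smallest step in low FPKM values, and this estimate is approximate. Between 27 and 60 of the tested genes were at 0 in each IgM library, against 74 to 288 in each IgG1 library. The summed FPKM of all genes was lower in every IgM library (730695 to 806599) than in every IgG1 library (855123 to 914019). Expression also followed transcript length differently: the shortest 20% of the tested transcripts lay below their gene means in IgM libraries 1 to 3 (median deviation -0.18, -0.05 and -0.13 on the log2 scale) and above them in IgG1 libraries 1 to 3 (0.11, 0.15 and 0.21). All 8 plasma cell markers were expressed in both groups, with summed levels of 44300 to 50170 FPKM in IgM and 36770 to 39350 FPKM in IgG1 libraries. Neutrophil and NK cell markers were at 0 in every library, and summed T cell, erythroid and stromal markers reached at most 10.9 FPKM. Summed myeloid markers were at 5.92 to 10.7 FPKM in IgM and 0.187 to 6.08 FPKM in IgG1 libraries, and their part in the results was not tested.

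Initiation factor genes as a set took up nearly the same share of the measured RNA in the 2 isotypes. Their summed FPKM made up 0.929%, 0.915% and 0.933% of all FPKM in IgM libraries 1 to 3, against 0.899%, 0.940% and 0.955% in IgG1 libraries 1 to 3. The groups overlap in this share. Levels ranged widely among the factors: 21 of the 45 averaged at least 100 FPKM over the 6 libraries, the median factor averaged 82.03 FPKM, and Eif5a led at 1355 FPKM, followed by Eif1 at 664.7, Eif3g at 523.7, Eif3k at 448.1 and Eif3m at 409.4 FPKM. Because these are bulk samples, fewer cells expressing a gene and less RNA per cell cannot be told apart.

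**Figure D1:**
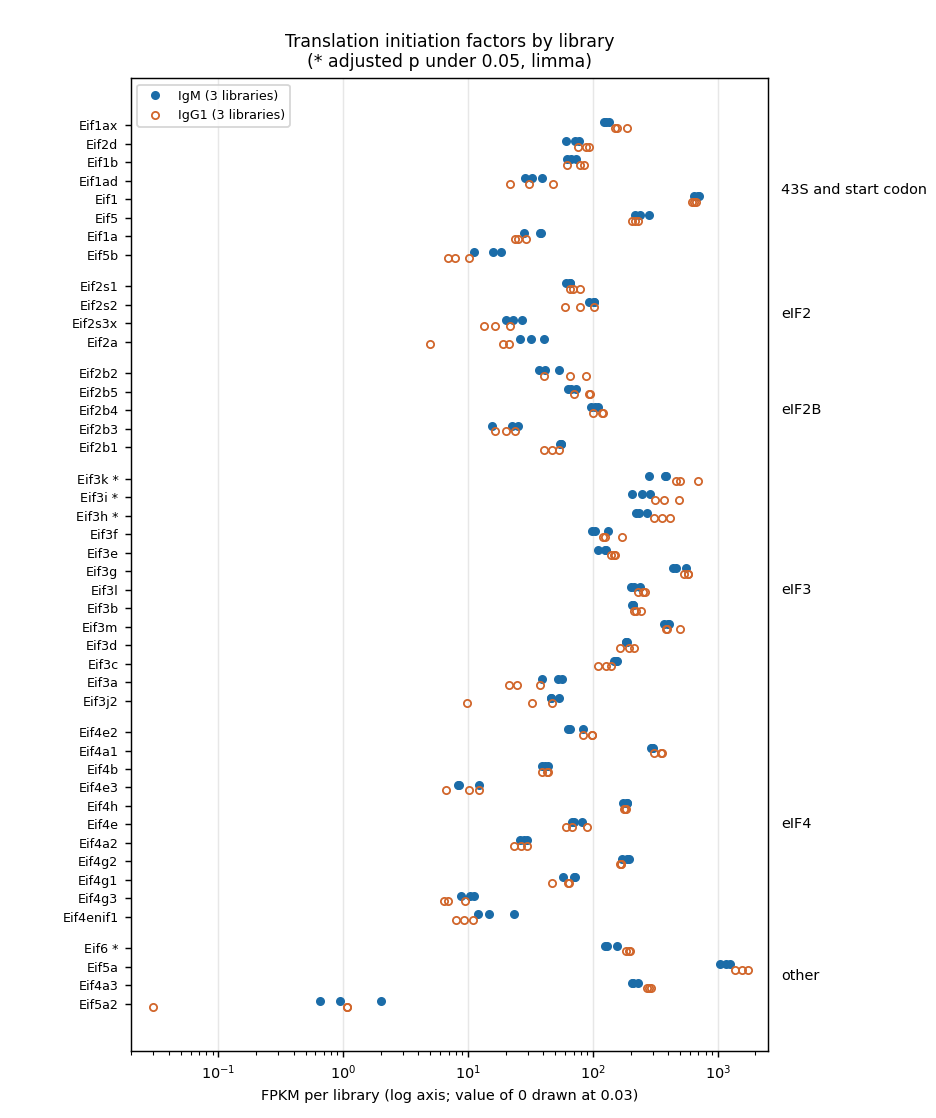
FPKM of the 45 initiation factors in each library (log axis; IgM filled, IgG1 open), grouped by role and, within a role, ordered by log2 fold change. Eif3k, Eif3i, Eif3h and Eif6, marked with asterisks, have all 3 IgM points below all 3 IgG1 points, while most other rows overlap or lie close together.

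In limma's test over all 9087 genes, 4 of the 45 factors were called lower in IgM (8.89% of the factors, against 4.26% of all genes) and 0 were called higher (1.76% of all genes). At an unadjusted limma p under 0.05, 8 of the 45 factors were lower and 5 higher, against 1082 lower and 931 higher of all 9087 genes. The log2 fold change (IgM minus IgG1, of FPKM + 1) was positive in 22 factors and negative in 23, and its median was -0.02 for the factors and 0.05 for all genes tested. The groups did not overlap in 11 factors lower in IgM (24.4% of the factors, against 13.7% of all genes) and in 7 higher in IgM (15.6%, against 13.5%). The 4 called factors were the eIF3 subunit genes Eif3k, Eif3i and Eif3h and the large-subunit factor gene Eif6. Without IgM library 1, IgM library 3, IgG1 library 2 or IgG1 library 3, none of these 4 kept an adjusted p under 0.05. Without IgM library 2 Eif3k was lost and without IgG1 library 1 Eif6 was lost, and Eif5a was called lower in both cases.

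eIF3 held 3 of these 4 (23.1% of its 13 genes, against 4.26% of all genes called lower). It is built, in mammals, on a core of related subunits (a, c, e, f, h, k, l and m) with b, d, g and i attached and j bound loosely. Eif3k, which encodes a small core subunit, was at 280, 380 and 383 FPKM in IgM libraries 1 to 3, against 462, 496 and 688 FPKM in IgG1 libraries 1 to 3. Every IgG1 library was above every IgM library, and IgG1 library 3 was the highest of all. The IgM mean was 348 ± 58.7 FPKM and the IgG1 mean 549 ± 122 FPKM (SD, n = 3 each), a log2 fold change of -0.65 (SE 0.17, limma adjusted p = 0.0422).

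Eif3i encodes a subunit of the module with eIF3b and eIF3g that sits away from the core. It was at 207, 289 and 246 FPKM in IgM libraries, against 313, 373 and 484 FPKM in IgG1 libraries, again without overlap and with IgG1 library 3 the highest (log2 fold change -0.65, SE 0.17, adjusted p = 0.0443). Eif3h, a core subunit gene, was at 221, 271 and 234 FPKM in IgM libraries and at 308, 360 and 415 FPKM in IgG1 libraries. Its groups did not overlap, and it had the lowest adjusted p of the factors (-0.57, SE 0.14, adjusted p = 0.0322).

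The 2 subunits with the longest transcripts of the core lay on the other side, without passing the test. Eif3a, which encodes the largest subunit, was at 52.4, 39.2 and 56.7 FPKM in IgM libraries, against 24.9, 21.4 and 37.8 FPKM in IgG1 libraries. Its groups did not overlap, though IgM library 2 and IgG1 library 3 nearly met (log2 fold change 0.82, SE 0.24, adjusted p = 0.0688). Eif3c, its partner at the centre of the core, was at 149, 155 and 154 FPKM in IgM libraries and at 139, 128 and 110 FPKM in IgG1 libraries. The 3 IgM values were close together and all above IgG1 (0.28, SE 0.13, adjusted p = 0.235). When each library was rescaled to the same sum without Jchain, the abundant joining chain transcript, Eif3a (1.05, adjusted p = 0.0286) and Eif3c (0.51, adjusted p = 0.0464) were called higher in IgM and the count lower in IgM was 0. Over all genes the median log2 fold change was 0.25 under that scaling, against 0.05 as deposited, and Eif3k was at -0.42 there. The summed FPKM also differ between the groups, and the part of Jchain in this shift was not tested.

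Eif3g, the most abundant subunit transcript, was at 464, 556 and 440 FPKM in IgM libraries and at 538, 573 and 573 FPKM in IgG1 libraries, which overlap (-0.21, SE 0.11, adjusted p = 0.306). Of the other subunits, Eif3e (111, 127 and 125 FPKM in IgM, against 140, 151 and 148 FPKM in IgG1 libraries) and Eif3b (207, 208 and 208 FPKM in IgM, against 215, 219 and 243 FPKM in IgG1 libraries) had lower IgM values without overlap, and neither passed the test (adjusted p = 0.23 and 0.599). Eif3f, Eif3l, Eif3m and Eif3d overlapped between the groups, with log2 fold changes of -0.30, -0.19, -0.11 and -0.02. In all, 10 of the 13 eIF3 genes were negative and 3 positive (23.1%, against 53.7% of all genes), with a median of -0.19. However, 6 were negative after quantile normalization, 5 after rescaling without Jchain and 8 after a correction for transcript length and GC content.

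**Figure D2:**
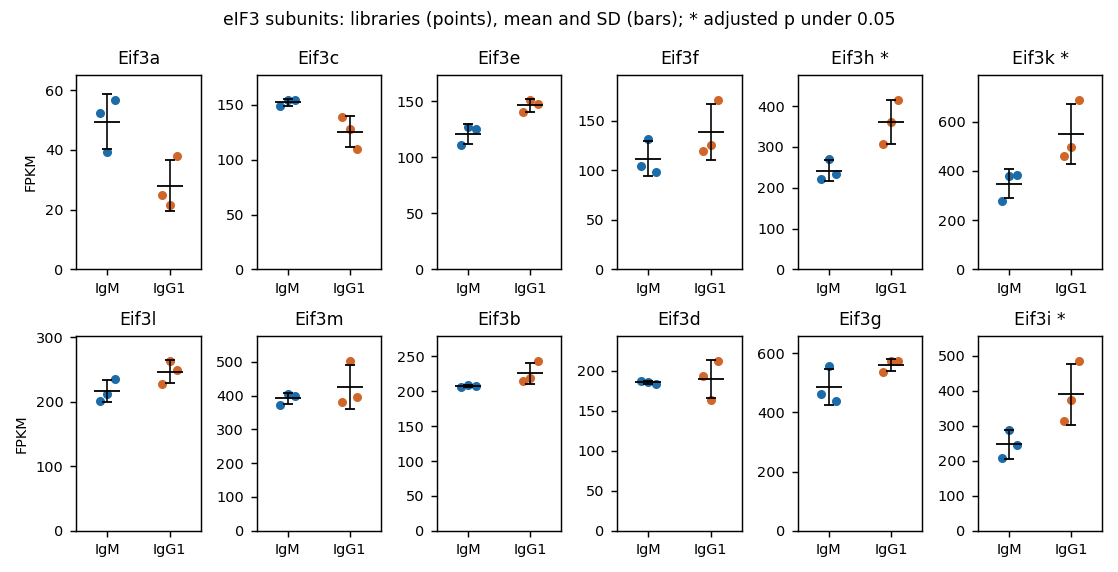
FPKM of 12 eIF3 subunit genes in IgM and IgG1 libraries (points), with the mean and SD of 3 libraries (bars); each axis starts at 0 and has its own scale. Eif3h, Eif3k and Eif3i, marked with asterisks, lie lower in IgM, and Eif3a and Eif3c lie higher in IgM.

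The eIF3 transcripts were spread more widely among themselves in IgG1 than in IgM libraries. Over the 12 subunits other than j, the SD of log2 FPKM was 0.85, 1.00 and 0.87 in IgM libraries 1 to 3. It was 1.18, 1.31 and 1.18 in IgG1 libraries 1 to 3. The part of transcript length in this spread was not tested. The ratio of Eif3k to Eif3a, a pair picked after the values were seen and so given with no test, was 5.34, 9.70 and 6.76 in IgM libraries, against 18.6, 23.2 and 18.2 in IgG1 libraries. A ratio within a library does not depend on the scaling between libraries, but the members of this pair differ in transcript length (774 and 5125 nt). The summed FPKM of the 12 subunits was 2557, 2959 and 2763 in IgM libraries and 3061, 3376 and 3726 in IgG1 libraries, with no overlap. As a share of all FPKM it was 0.350%, 0.367% and 0.365% in IgM libraries and 0.358%, 0.384% and 0.408% in IgG1 libraries, which overlap.

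Transcript length ran through the whole set. The factors' median transcript lengths span 774 to 7797 nt, and Spearman's rho between length and log2 fold change was 0.56 over the 45 factors and 0.36 over 8765 tested genes with a known length, a description across genes of the same 6 libraries. Of the 23 factors at or under the set's median length of 2203 nt, 17 were negative and 6 positive (26.1%, against 53.7% of all genes). In this group 4 were called lower in IgM (17.4%, against 4.26% of all genes) and 0 higher (1.76% of all genes). Of the 22 longer ones 16 were positive (72.7%) and 0 were called. Shares for all genes of like length were not computed, so short factors were not compared with short genes at large. The 4 called genes are short: 774 nt for Eif3k, 1123 nt for Eif3i, 1295 nt for Eif3h and 1441 nt for Eif6.

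With each library's trend in length and GC content removed, none of these 4 was called. Their corrected log2 fold changes were -0.36 for Eif3k (adjusted p = 0.186), -0.49 for Eif3i (0.11), -0.48 for Eif3h (0.0694) and -0.36 for Eif6 (0.122), all still negative. Eif3a was at 0.42 (adjusted p = 0.443), and rho over the factors became 0.20. After this correction 1 factor, Eif1ax, was lower in IgM (2.04% of all genes were called lower) and 0 were higher (0.924% of all genes).

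**Figure D3:**
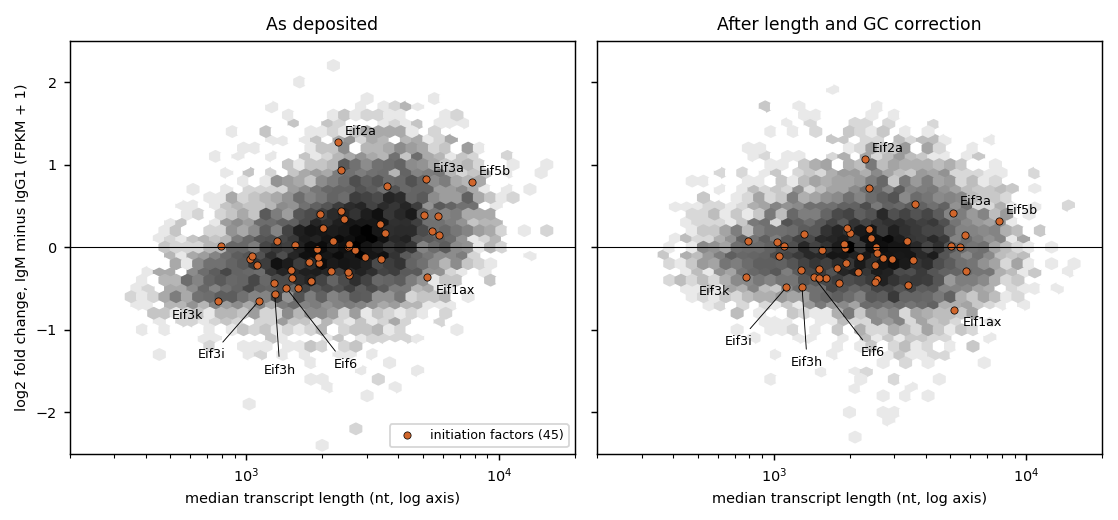
Log2 fold change (IgM minus IgG1) against median transcript length (log axis) for the 45 initiation factors (points) over all tested genes with a known length (grey hexagons, darker where more genes lie), as deposited (left) and after length and GC correction (right). On the left the short Eif3k and Eif3i lie low and the long Eif3a and Eif5b high; on the right Eif1ax, at -0.76, is the lowest factor.

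Eif1ax, the X-linked gene for eIF1A, was singled out after its values were seen, because it lay against the trend. Its transcript is long (5172 nt), yet it was at 126, 123 and 135 FPKM in IgM libraries, against 151, 189 and 157 FPKM in IgG1 libraries, with no overlap. Its log2 fold change was -0.36 as deposited (SE 0.13, adjusted p = 0.132) and -0.76 after the correction (SE 0.13, adjusted p = 0.0142). The autosomal gene for the same factor, Eif1a, was at 34.8 ± 5.91 FPKM in IgM and 26.01 ± 2.78 FPKM in IgG1 cells (adjusted p = 0.298), on the opposite side, and the groups overlapped.

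Among the other genes grouped here under start codon choice and subunit joining, 0 were called before the correction. Eif1, whose product keeps the scanning ribosome open, was at 697, 712 and 641 FPKM in IgM libraries and at 626, 665 and 647 FPKM in IgG1 libraries, which overlap (0.08, SE 0.10, adjusted p = 0.697). Eif5, which encodes the GTPase activator of eIF2, was at 246 ± 34.0 FPKM in IgM and 217 ± 10.3 FPKM in IgG1 cells (0.17, adjusted p = 0.482; -0.15 after the correction). Eif5b, the subunit-joining GTPase and the longest transcript of the set, was at 11.1, 16.0 and 18.3 FPKM in IgM libraries and at 10.1, 7.82 and 6.87 FPKM in IgG1 libraries, every IgM value above every IgG1 value (0.79, SE 0.31, adjusted p = 0.161). Its exons overlap those of Rev1, a neighbouring protein-coding gene. In all, 8 factors overlap another protein-coding gene in this way: Eif1ad, Eif2a, Eif2b4, Eif2d, Eif3m, Eif4a2, Eif4e3 and Eif5b. Whether counting was strand-specific is not stated in the sources, so their values are uncertain to that extent. Eif1ad and Eif2d overlapped between the groups.

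The eIF2 genes, 4 in number, and the 5 eIF2B genes held 0 calls. Over all genes 4.26% were called lower and 1.76% higher, so 0 calls among so few genes does not set them apart. Eif2s2, which encodes the beta subunit of eIF2, was at 103, 93.3 and 101 FPKM in IgM libraries and at 101, 78.4 and 59.6 FPKM in IgG1 libraries (0.34, SE 0.19, adjusted p = 0.31). The alpha subunit gene Eif2s1, whose product is the one phosphorylated in stress, was at 64.2 ± 2.52 FPKM in IgM and 71.2 ± 7.46 FPKM in IgG1 cells (adjusted p = 0.641), and the gamma subunit gene Eif2s3x at 23.3 ± 3.36 and 17.2 ± 4.05 FPKM (adjusted p = 0.348). Eif2a, which encodes a separate initiator tRNA carrier and no subunit of eIF2, had the largest log2 fold change of the factors at 1.28 (SE 0.43, adjusted p = 0.104). It was at 32.1, 26.1 and 40.3 FPKM in IgM libraries, against 18.9, 21.2 and 4.91 FPKM in IgG1 libraries, without overlap and with IgG1 library 3 far below the other 2. Its exons overlap those of Serp1, so its values are uncertain to that extent.

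eIF2B, the exchange factor, has 5 subunit genes. Eif2b4, the most abundant, was at 104, 110 and 96.2 FPKM in IgM libraries and at 119, 120 and 100 FPKM in IgG1 libraries. The groups overlap (-0.12, SE 0.14, adjusted p = 0.669), and its exons overlap those of Snx17. Eif2b1 was higher in every IgM library, at 55.3 ± 0.547 FPKM, against 47.0 ± 6.32 FPKM in IgG1 cells (0.24, adjusted p = 0.454). Eif2b2, Eif2b5 and Eif2b3 overlapped, at -0.49, -0.34 and 0.03.

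The eIF4 genes, 11 in number, held 0 calls as well (4.26% of all genes were called lower and 1.76% higher). The helicase eIF4A has 2 paralogs that assemble into the cap-binding complex. Eif4a1 was at 294, 300 and 296 FPKM in IgM libraries, against 307, 351 and 355 FPKM in IgG1 libraries, all IgM values below all IgG1 values (-0.18, SE 0.11, adjusted p = 0.366), and its sign turned after quantile normalization (0.02) and rescaling without Jchain (0.05). Eif4a2 was at 29.6, 26.1 and 28.2 FPKM in IgM libraries and at 23.5, 26.4 and 29.7 FPKM in IgG1 libraries, which overlap (0.08, SE 0.20, adjusted p = 0.865).

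The ratio of Eif4a1 to Eif4a2 was 9.93, 11.5 and 10.5 in IgM libraries, against 13.1, 13.3 and 11.9 in IgG1 libraries. All IgM ratios were below all IgG1 ratios, a log2 difference of -0.26 (two-sided exact permutation p = 0.1, the smallest that 3 against 3 allows; 0.4 adjusted over 4 ratios). The exons of Eif4a2 overlap those of Rfc4, another protein-coding gene, so its values, and the ratio, are uncertain to that extent. The coding sequences of the 2 paralogs (1218 and 1224 nt in GENCODE vM21, GRCm38) are identical at 78.0% of 1218 aligned bases. They share 0 of 1169 windows of 50 bases. Only coding bases were compared, so how well reads were assigned to each gene was not tested. The stretch that encodes the DEAD box, the motif that names this helicase family, is shown to compare them. It was chosen for the motif and does not stand for the whole coding sequence. It covers coding bases 505 to 594 of Eif4a1 (chr11:69666936-69672423, minus strand) and 511 to 600 of Eif4a2 (chr16:23107444-23114136, plus strand), with the 12 differing bases in capitals.
Eif4a1: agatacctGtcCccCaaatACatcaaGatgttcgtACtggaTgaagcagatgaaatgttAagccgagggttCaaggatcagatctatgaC
Eif4a2: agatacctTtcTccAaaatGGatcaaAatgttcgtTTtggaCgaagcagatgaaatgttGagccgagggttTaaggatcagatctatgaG

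The other paralog ratios overlapped between the groups. Eif4e, which encodes the cap-binding protein, was at 68.3, 70.1 and 81.1 FPKM in IgM libraries and at 90.1, 61.1 and 68.3 FPKM in IgG1 libraries (0.02, SE 0.18, adjusted p = 0.969). Its relative Eif4e2, whose product binds the cap and is known to repress translation, was at 65.1, 82.9 and 63.6 FPKM in IgM libraries, just below 98.9, 98.5 and 83.1 FPKM in IgG1 libraries (-0.41, SE 0.16, adjusted p = 0.161). The ratio of Eif4e to Eif4e2 was 1.05, 0.846 and 1.27 in IgM libraries and 0.911, 0.620 and 0.823 in IgG1 libraries (log2 difference 0.43, exact permutation p = 0.2, adjusted 0.4).

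For the scaffold genes, Eif4g1 was at 70.05, 57.6 and 71.6 FPKM in IgM libraries and at 63.6, 46.6 and 63.8 FPKM in IgG1 libraries, which overlap. Eif4g2, whose product lacks the eIF4E-binding part of the scaffold, was at 194, 172 and 187 FPKM in IgM libraries, all above 164, 167 and 168 FPKM in IgG1 libraries (0.15, SE 0.12, adjusted p = 0.513), though at -0.28 after the length and GC correction. The ratio of Eif4g1 to Eif4g2 was 0.360, 0.335 and 0.383 in IgM libraries and 0.388, 0.279 and 0.380 in IgG1 libraries (log2 difference 0.06, exact permutation p = 0.9, adjusted 0.9). Eif4enif1, which encodes the eIF4E transporter, was at 23.4, 12.1 and 14.8 FPKM in IgM libraries, all above 10.9, 9.28 and 7.93 FPKM in IgG1 libraries (0.74, SE 0.31, adjusted p = 0.195). The helicase cofactor genes Eif4b and Eif4h were at -0.03 and 0.01 on the log2 scale.

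The ratio of Eif1 to Eif1b was 10.5, 9.76 and 10.2 in IgM libraries and 7.40, 10.8 and 8.28 in IgG1 libraries (log2 difference 0.22, exact permutation p = 0.4, adjusted 0.533). Eif1b itself was at 66.2, 73.0 and 62.5 FPKM in IgM libraries and at 84.6, 61.4 and 78.2 FPKM in IgG1 libraries, and the spread within IgG1 sets the spread of the ratio. These 2 coding sequences, 339 nt each, are 81.1% identical and also share 0 windows of 50 bases. The pseudogenes Eif1-ps1, Eif1-ps2 and Eif1-ps3 are named after Eif1, and its sequence was not compared with theirs. Their first 90 coding bases, from Eif1 on chr11:100319885-100322096 and Eif1b on chr9:120492232-120495330, both plus strand, are shown to compare them, with the 13 differing bases in capitals.
Eif1: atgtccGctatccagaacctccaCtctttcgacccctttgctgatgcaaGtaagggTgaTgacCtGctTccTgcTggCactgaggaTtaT
Eif1b: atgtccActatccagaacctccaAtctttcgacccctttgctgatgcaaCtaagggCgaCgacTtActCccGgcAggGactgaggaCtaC

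One pair could not be told apart by its coding sequence. Eif3j1 and Eif3j2 encode subunit j, and the 783 coding bases of Eif3j1 align with the 789 of Eif3j2 with all 783 aligned bases identical, sharing 732 of 734 windows of 50 bases. Eif3j2 was at 53.5, 45.8 and 46.3 FPKM in IgM libraries and at 9.75, 46.6 and 32.8 FPKM in IgG1 libraries, where library 1 stands far below the rest. In that same library Eif3j1 was at 26.5 FPKM, against at most 0.0841 FPKM in the other 5. The summed FPKM of both genes was 53.6, 45.9 and 46.4 in IgM libraries and 36.2, 46.7 and 32.8 in IgG1 libraries, which overlap. This sum is rough, because their median transcript lengths differ (5413 nt for Eif3j1 and 2379 nt for Eif3j2). FPKM are scaled by length, and the exons of Eif3j1 also overlap those of Spg11. Summing them, an alternative added after the data were seen, took the log2 fold change from 0.94 for Eif3j2 alone (adjusted p = 0.216) to 0.34 (SE 0.19, adjusted p = 0.326).

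**Figure D4:**
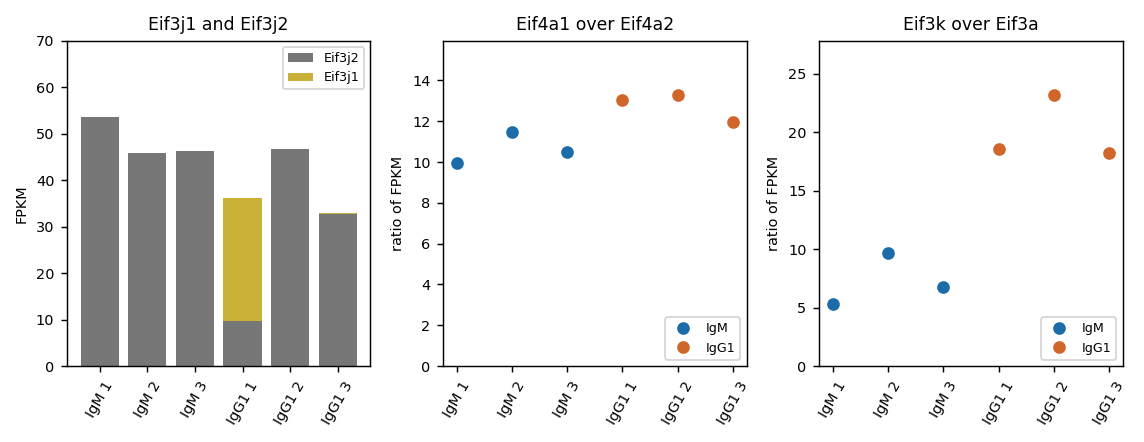
Left, FPKM of Eif3j2 (grey) and Eif3j1 (yellow) stacked for each library; middle and right, the ratio of Eif4a1 to Eif4a2 and of Eif3k to Eif3a in each library (IgM left, IgG1 right; axes start at 0). Eif3j1 appears in IgG1 library 1 alone, and both ratios are lower in all 3 IgM libraries than in any IgG1 library.

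Of the 4 remaining factors 1 was called lower in IgM. Eif6, whose product keeps the large subunit from joining too early, was at 124, 155 and 130 FPKM in IgM libraries, against 195, 183 and 198 FPKM in IgG1 libraries, without overlap. Its mean was 136 ± 16.0 FPKM in IgM and 192 ± 7.75 FPKM in IgG1 cells (SD, n = 3 each; log2 fold change -0.50, SE 0.13, adjusted p = 0.0443). Eif5a, the hypusinated factor that also acts in elongation, was at 1036, 1260 and 1159 FPKM in IgM libraries, all below 1373, 1551 and 1750 FPKM in IgG1 libraries, and just missed the threshold (-0.43, SE 0.12, adjusted p = 0.0505). Eif4a3, a helicase of the exon junction complex, was at 215 ± 12.2 FPKM in IgM and 280 ± 10.9 FPKM in IgG1 cells, again without overlap (-0.38, SE 0.11, adjusted p = 0.07). Eif5a2, the rare paralog of Eif5a, stayed at or below 2.02 FPKM in every library.

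In GRCm38, Eif3k lies at chr7:28971372-28981864, Eif3i at chr4:129591960-129600648, Eif3h at chr15:51786558-51865523 and Eif6 at chr2:155819832-155826925, all on the minus strand. Eif3a lies at chr19:60761117-60790658 on the minus strand and Eif1ax at chrX:159372178-159389928 on the plus strand. All 6 are annotated as protein-coding genes.

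**Figure D5:**
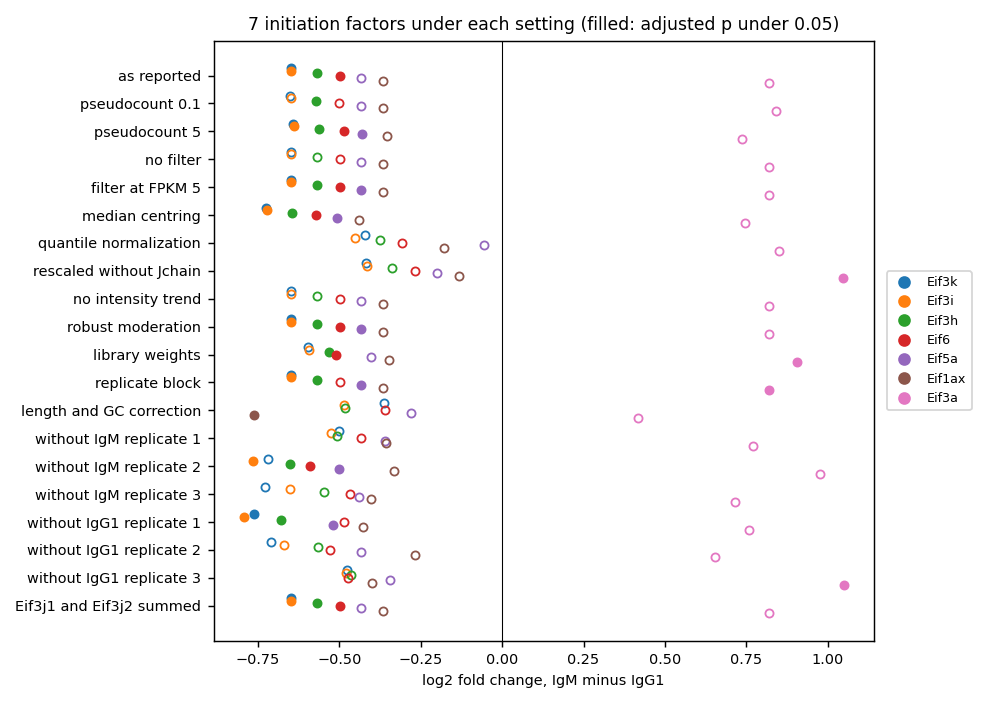
Log2 fold change (IgM minus IgG1) of 7 initiation factors as reported and under each alternative setting; filled points have an adjusted p under 0.05. Eif3k, Eif3i, Eif3h, Eif6, Eif5a and Eif1ax lie left of 0 and Eif3a right of 0 in every row, while which of them is filled changes with the setting.

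Genes that act beside the initiation factors were listed as well. Of 31 regulators of initiation tested, 1 was called lower in IgM (3.23%, against 4.26% of all genes) and 0 higher. Of the 31, 25 were positive (80.6%, against 53.7% of all genes), with a median of 0.43, against 0.05 for all genes, and their median transcript length was 3252 nt (corrected median 0.23). The called gene was Mknk2, which encodes a kinase that phosphorylates eIF4E. It was at 3.43, 5.36 and 20.8 FPKM in IgM libraries, against 22.5, 29.4 and 44.5 FPKM in IgG1 libraries, with IgM library 3 close to the IgG1 range. Its log2 fold change was -1.91 (SE 0.50, adjusted p = 0.0445), -1.88 after the length and GC correction (adjusted p = 0.0619), and its adjusted p reached 0.188 when 1 library was left out. Paip2, which encodes an inhibitor of the poly(A)-binding protein, was at 104 ± 17.6 FPKM in IgM and 86.5 ± 15.3 FPKM in IgG1 cells (adjusted p = 0.408). Eif4ebp1, a repressor of eIF4E, was at 63.5 ± 3.81 FPKM in IgM and 76.8 ± 4.69 FPKM in IgG1 cells (adjusted p = 0.316).

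Of 15 elongation and release factor genes 0 were called in either direction, and their median was -0.04. Over all genes 4.26% were called lower and 1.76% higher, so 0 calls in lists this short does not set them apart. The most abundant were Eef1a1, the carrier of aminoacyl-tRNA (2535 ± 131 FPKM in IgM, against 2774 ± 102 FPKM in IgG1, adjusted p = 0.45), and Eef1g, a subunit of its exchange factor (653 ± 108 against 915 ± 145 FPKM, -0.49, adjusted p = 0.0709). The 3 mitochondrial initiation genes Mtif2, Mtif3 and Mtfmt held 0 calls, and Mtif2 was at 0.258 FPKM in IgG1 library 3, against 6.57 and 12.7 FPKM in the other IgG1 libraries and 10.4 to 11.97 FPKM in IgM libraries.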

How the data were processed

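RNA of sorted IgM and IgG1 plasma cells (3 libraries each) was extracted with a miRNeasy Micro kit, and full-length cDNA was made with SMART-Seq HT and Nextera XT, per the labels' protocols. The deposited values are FPKM per gene symbol; the authors used Cufflinks 2.2.1 with Cuffdiff, TopHat2 2.1.1 and Bowtie2 2.3.5.1 on build mm10, per the submitters' processing notes. Not given in the sources used here were the annotation behind these FPKM, the scaling between libraries and the use of strand. FPKM are not counts, so no count model was used, and the depth estimate from their smallest step is approximate.

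Genes with at least 1 FPKM in at least 3 of 6 libraries were tested on log2(FPKM + 1) with limma 3.58.1 (R 4.3.3, intensity trend, all 6 libraries, no covariate), and p-values were adjusted by Benjamini-Hochberg over all 9087 genes, with a threshold of 0.05. The pseudocount of 1 understates changes of low genes. The 4 paralog ratios were tested by a two-sided exact permutation test (scipy 1.17.1). Transcript lengths and GC content are medians over GENCODE vM21 transcripts (GRCm38, the assembly of mm10), found for 96.5% of tested genes. The correction removed each library's trend in both (natural splines, 4 degrees of freedom) from the deviations from gene means. Coding sequences were aligned with biopython 1.88. The limma step was also run on simulated data. Those had independent noise and no length trend or scaling difference between libraries, so that run does not bear on these features of the data.

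The factors and lists were chosen with earlier results of these data known. Values in every library are given for called factors, for up to 4 factors per direction with the largest fold change and no overlap, for the highest factor of each role and for the paralog pairs; Eif1ax, Eif3b, Eif3c, Eif3e, Eif3j1 and Eif3j2 were added after their values were seen. Other pathway genes are named where called or among the 2 highest of their list. Alternatives changed the pseudocount, the filter, the scaling, the moderation, library weights, a replicate block, the length and GC trend and the libraries used.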

Additional observations from a re-analysis of the deposited data

How the results depend on the processing

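The calls among initiation factors depended on the processing, while the 4 called factors kept their negative sign in every alternative run. The count of factors lower in IgM, 4 as reported, became 1 with a pseudocount of 0.1 (Eif3h) and 2 with library weights (Eif3h and Eif6). It became 0 with no filter, 0 after quantile normalization, 0 after rescaling without Jchain and 0 without the intensity trend. After the length and GC correction it was 1, Eif1ax, and 0 of the reported 4 were kept. With 1 library left out the count ranged from 0 to 4, and where it was 4, it held 3 of the reported factors and Eif5a. The count became 6 with median centring (Eif4a3 and Eif5a added) and 5 with a pseudocount of 5, with a filter at 5 FPKM and with robust moderation (Eif5a added in each). The reported 0 factors higher in IgM became 1 after quantile normalization (Eif1), 2 after rescaling without Jchain (Eif3a and Eif3c), 1 with library weights (Eif3a), and 0 to 1 with 1 library left out (Eif3a without IgG1 library 3). With the replicate number as a block, 1 factor was higher (Eif3a, adjusted p = 0.0352) and 4 were lower, with Eif5a in and Eif6 out. Deviations of same-numbered libraries from their group means were hardly correlated (0.10, -0.03 and -0.0006). The labels do not say whether same-numbered libraries belong together, and these correlations cannot decide it.

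Over all genes, the 160 higher became 4 with no filter, 393 after rescaling without Jchain, 5 without the intensity trend and 81 after the length and GC correction, and 30 to 251 with 1 library left out. The 387 lower became 2, 177, 3 and 179 under those 4 settings, 188 after quantile normalization, and 78 to 394 with 1 library left out. The cause was not tested. The log2 difference of the Eif4g1 to Eif4g2 ratio ranged from -0.10 (without IgG1 library 2) to 0.14.

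Of 854 log2 fold changes of single factors under the alternatives, 739 kept their direction and side of the threshold, 44 lost and 15 gained the threshold, and 56 turned their sign, all in factors that were not called. After quantile normalization these were Eif3g (0.0717), Eif4a1 (0.0179), Eif2b4 (0.0128), Eif3b (0.0587), Eif3m (0.1182), Eif4b (0.0157), Eif3d (0.1537), Eif4e3 (-0.0982), Eif2b3 (-0.0024) and Eif5a2 (-0.0117). After rescaling without Jchain they were Eif3g (0.0195), Eif3l (0.0453), Eif4a1 (0.0494), Eif2s1 (0.0860), Eif1b (0.0888), Eif2b4 (0.1089), Eif3b (0.1125), Eif3m (0.1234), Eif4b (0.1960) and Eif3d (0.2079). After the length and GC correction they were Eif3g (0.0193), Eif1b (0.0639), Eif3d (0.0404), Eif4e3 (-0.2153), Eif2b3 (-0.0361), Eif1ad (-0.0757), Eif4a2 (-0.1240), Eif4g2 (-0.2832), Eif5 (-0.1543) and Eif4g1 (-0.0006). Median centring turned Eif4e3 (-0.0672), Eif4h (-0.0649), Eif4e (-0.0599), Eif2b3 (-0.0437) and Eif1ad (-0.0317), and library weights turned Eif4e3 (-0.0222), Eif4e (-0.0348) and Eif1ad (-0.0458). With 1 library left out, the values ranged from -0.18 to 0.0147 for Eif3m, -0.0854 to 0.0072 for Eif4b, -0.12 to 0.0606 for Eif3d, -0.21 to 0.18 for Eif4e3, -0.0087 to 0.0485 for Eif4h, -0.10 to 0.17 for Eif4e, -0.22 to 0.33 for Eif1ad, -0.10 to 0.23 for Eif2b3 and -0.0042 to 0.16 for Eif4a2. With 3 libraries a group, differences under the spread between libraries were not detectable.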

Other observations

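Initiation factor levels varied less between libraries of a group than those of genes at large. The median coefficient of variation was 9.74% in IgM and 13.4% in IgG1 libraries over the 45 factors, against 19% in IgM and 28.1% in IgG1 libraries over 9081 genes, and the factors are also more abundant than most genes, so their part in this was not tested. The coefficient was larger in IgG1 for 30 of 45 factors (66.7%), against 67.3% of all genes. IgM library 1 held the lowest value of 14 factors (31.1%), against 18.1% of all genes, and IgG1 library 3 held the highest value of 12 (26.7%), against 25% of all genes.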
